A study of Mus musculus with 5 samples.

Results

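Mitochondrial ribosomal proteins are encoded in the nucleus, made in the cytoplasm and imported into mitochondria, where they assemble on mitochondrial rRNA into the ribosome that translates the proteins encoded by mitochondrial DNA (mtDNA). Those products are all subunits of the oxidative phosphorylation complexes, so this ribosome serves respiration, whereas cytoplasmic ribosomes make nearly every other protein of the cell. Symbols that begin with Mrpl name proteins of the large subunit, which forms peptide bonds, and symbols that begin with Mrps name proteins of the small subunit, which reads the mRNA. All genes with either prefix were taken from the deposited table of lung metastatic cancer cells, which gave 78 of its 23771 genes, 49 of them Mrpl and 29 Mrps. Each of the 78 was seen in at least 10% of cancer cells as the mean of the 2 libraries and was compared, as were 9533 genes in all.

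The cancer cells were 4T1 CD90.1, a mouse mammary carcinoma line transduced with the Thy1 variant CD90.1 as a reporter. Female BALB/c mice were injected i.v. with tumor-secreted factors (TSF), collected in medium in which minced primary tumors had been kept, or with control medium (CM) incubated without tumor, 3 times per week for 3 weeks. They then received 25000 cancer cells i.v., and lungs were taken at day 16 (colonization), when the mice were 11 weeks old. The labels name tumors of the 4T1 or EMT6.5 lines as sources of TSF, the study describes this experiment with TSF from 4T1 tumors, and the supernatants of 3 tumors were pooled. Each library pooled the dissociated lungs of 3 mice, and there was 1 TSF library and 1 CM library at day 16, so no comparison below has a replicate check and none carries a test. The question addressed was whether cancer cells growing in TSF-primed lungs differ from those in control lungs in the genes of the mitochondrial translation machinery, in its large and small subunits alike.

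The TSF library held 139 cancer cells with 3937739 UMIs (unique molecular identifiers, each counting 1 captured transcript end), and the CM library held 29 with 726849. A mean of 1 CP10k, that is 1 UMI per 10000 UMIs of a cell, averaged over cells, would therefore correspond to about 394 UMIs in TSF and 72.7 in CM if all cells had equal depth. The median cell had 26615 UMIs in TSF and 27679 in CM, but 10.1% of the TSF cells and 27.6% of the CM cells had fewer than 10000. A single UMI in the shallowest CM cell, which had 973 UMIs, adds 0.354 CP10k to the CM mean. Between the libraries 31 cell barcodes were shared, and 0 of them were cancer cells in both libraries. The cells of both libraries carried the epithelial keratins Krt8, in 98.6% of TSF and 100% of CM cells, and Krt18, in 99.3% and 96.6%. The other epithelial markers were less even, with Krt7 in 61.2% and 62.1%, Krt19 in 38.1% and 31.0%, Cdh1 in 25.2% and 6.90% and Cd24a in 64.0% and 89.7%. The macrophage and NK markers Lyz2, Csf1r, C1qa and Nkg7 were at 0 in both libraries. The 9 leukocyte markers summed to 1.01 CP10k in TSF, nearly all of it S100a9 (0.685) and S100a8 (0.300) in at most 4 cells, and to 0.00958 in CM. The sums were 0.186 in TSF and 0.0588 in CM for the 4 endothelial markers, 1.04 and 0.498 for the 5 fibroblast and pericyte markers, and 0.127 and 0.113 for the 6 alveolar and airway markers. Of the fibroblast and pericyte markers, Pdgfra was in 45.3% of TSF and 44.8% of CM cells, at 0.426 and 0.407 CP10k. Dcn was at 0.526 and 0.0907 CP10k, in 16 of 139 and 2 of 29 cells. Col1a1 and Col1a2 were each in 6 TSF and 0 CM cells, and Pdgfrb was in 0 of either. The reporter itself differed between the libraries, with CD90.1 seen in 34.5% of TSF and 6.90% of CM cancer cells. Thy1, of which CD90.1 is a variant, was seen in 76.3% and 34.5%, and Epcam in 68.3% and 27.6%. How far reads of the reporter were counted as Thy1 was not tested. Whether all 29 CM cells are of the injected line, and whether the libraries differ in the makeup of their cancer cells, was not tested.

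As a whole, the mitochondrial ribosomal protein genes summed to nearly the same level in cancer cells of TSF-primed and control lungs, and the large and small subunits had like medians. The 78 genes summed to 73.6 CP10k in TSF and 68.7 in CM, a ratio of 1.07. The 49 Mrpl genes summed to 46.2 and 42.7 CP10k, and the 29 Mrps genes to 27.4 and 26.0. Of the 78, 42 had a higher mean CP10k in TSF, or 53.8%, where 39.8% of all genes compared did. On the scale of log2 of the TSF to CM ratio, with 0.1 CP10k added to both means, the median was 0.02 for all 78, 0.02 for Mrpl, 0.04 for Mrps and -0.13 for all genes compared. The median of all genes was thus below 0, and set against it the members' median was 0.15 higher. This gap depends on the filter: over the 14735 genes with a UMI in either library, 50.4% were higher in TSF and the median was 0.01. These medians describe genes of 2 libraries, and genes are not replicates.

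Few single members lay far from equality. At least 1.5-fold higher in TSF were 9 of the 78, where 7.19% of all genes compared were, and at least 1.5-fold lower were 2, where 17.7% of all genes were. Each member was seen in at least 33.1% of TSF and 27.6% of CM cells, whereas the genes compared go down to 10%. The shares of all genes are thus not matched for level, and ratios of rarer genes rest on fewer UMIs. By subunit, 6 Mrpl and 3 Mrps genes were past 1.5-fold higher, and 1 of each was past 1.5-fold lower. These counts depend on the amount added before the ratio: with 1 CP10k added, 0 members were past 1.5-fold higher and 1 lower, beside 0.808% and 2.09% of all genes compared, and with 0.01 it was 10 and 8, beside 13.4% and 27.4%. The share of cancer cells with a UMI was higher in TSF for 55 of the 78, against 49.6% of all genes compared. Both measures were higher in TSF for 37 members and lower for 18, whereas 18 others had a lower mean but a larger share of cells in TSF, and 5 had the reverse. The rarer shallow cells of the TSF library go with larger shares of cells, and their part in this count was not tested.

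**Figure D1:**
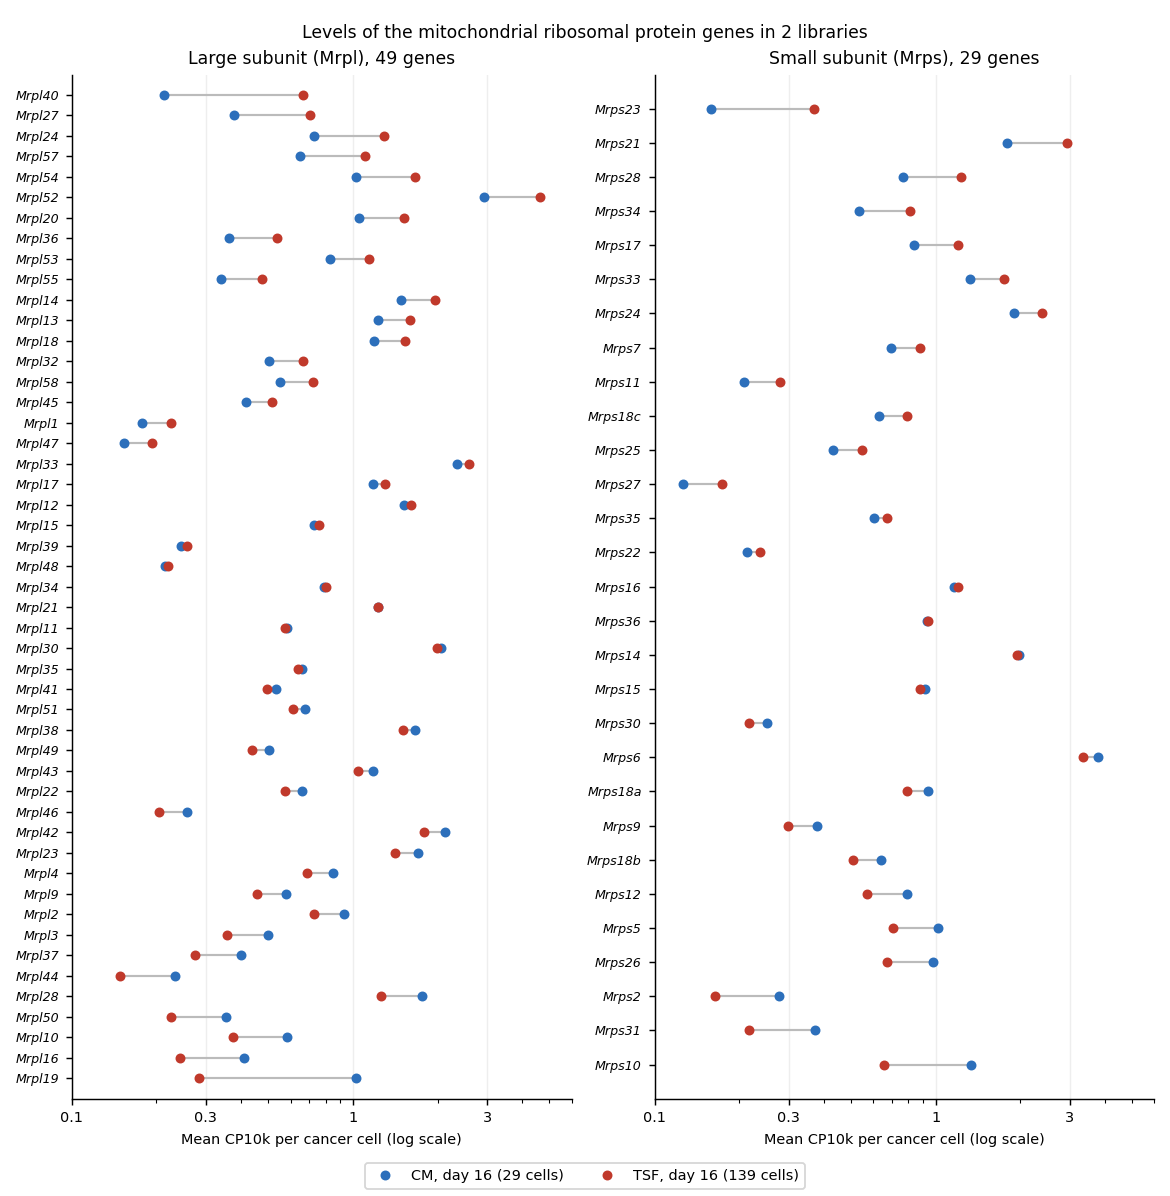
Mean CP10k per cancer cell (log axis) of each of the 49 Mrpl and 29 Mrps genes in the CM library (blue, 29 cells) and the TSF library (red, 139 cells) of day 16, ordered by their ratio, with a grey line joining the 2 values of a gene. Levels run from 0.149 to 4.65 CP10k in TSF and from 0.126 to 3.77 in CM, and the gap between libraries is small beside the spread between genes except at both ends of each panel.

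The genes differed from each other far more than the libraries did. Because a 5′ library counts transcript ends, the levels below were not divided by transcript length, and they compare captured ends per cell. In TSF the levels ran from 0.149 to 4.65 CP10k with 27 genes above 1 CP10k, and in CM from 0.126 to 3.77 with 25 above 1 CP10k. The order was largely shared, with a Spearman correlation of 0.89 across the 78 genes, which are not independent and share their libraries.

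Among the 10 genes of highest mean level, Mrpl52 stood at 4.65 CP10k in TSF and 2.94 in CM, and it was seen in 134 of 139 and 27 of 29 cells. It encodes a protein of the large subunit that bacterial ribosomes lack. Mrps6, the counterpart of a bacterial small subunit protein, came next at 3.34 CP10k in TSF and 3.77 in CM, so the leading gene differed between the libraries. Mrpl33, which had the shortest coding sequence of all members, stood at 2.60 and 2.35 CP10k. Mrps21 was at 2.92 and 1.80 CP10k, and Mrps24 at 2.39 and 1.90. Mrpl30 was at 1.99 CP10k in TSF and 2.06 in CM, Mrps14 at 1.95 and 1.99, and Mrpl42 at 1.79 and 2.13. Mrpl14 was at 1.95 and 1.48 CP10k (log2 ratio 0.38), and Mrpl38 at 1.505 and 1.67. Of these 10 genes, Mrpl52 and Mrps21 were past 1.5-fold between the libraries.

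Mrpl40 had the highest ratio. It encodes a mitochondria-specific large subunit protein, and its human counterpart lies in the region lost in DiGeorge syndrome. The gene (chr16:18872018-18876862, minus strand, GRCm38) was at 0.664 CP10k in TSF and 0.212 in CM, a log2 ratio of 1.29. A UMI of it was seen in 107 of 139 TSF cells, or 77.0% (exact 95% interval 69.1 to 83.7), and in 12 of 29 CM cells, or 41.4% (23.5 to 61.1). It was the only one of the 78 whose 2 intervals did not overlap, where 1.16% of all genes compared had separate intervals with the higher share in TSF and 1.56% with the lower share. With Wilson intervals, 2 members were separate. The share of all genes with separate Wilson intervals is not given here, so that count cannot be set beside it. These intervals cover counting error only.

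Mrps23 (chr11:88204388-88211507, plus strand), a mitochondria-specific protein of the small subunit, was at 0.368 CP10k in TSF and 0.159 in CM, with a log2 ratio of 0.86. It was seen in 56.8% of TSF cells (48.2 to 65.2) and 41.4% of CM cells (23.5 to 61.1), and these intervals overlap. Mrpl27, whose bacterial counterpart reaches into the site of peptide bond formation, was at 0.704 and 0.377 CP10k (log2 ratio 0.75). Mrpl24, which lies near the exit of the tunnel through which the new chain leaves, was at 1.29 and 0.730 CP10k (0.74). It was seen in 121 of 139 TSF and 19 of 29 CM cells, shares whose intervals overlap only narrowly, at 80.3 to 92.1% and 45.7 to 82.1%. The mitochondria-specific large subunit genes Mrpl57 and Mrpl54 were at 1.11 against 0.646 and 1.66 against 1.02 CP10k, with log2 ratios of 0.69 and 0.65. Mrps21 had a log2 ratio of 0.67 and Mrpl52 of 0.64, and both were seen in at least 89.7% of cells of either library, where the share of cells has little room to differ. Computed from the share of cells, the log2 ratio was 0.55 for Mrps21 and 0.31 for Mrpl52. The ninth gene past 1.5-fold, Mrps28, named here after its values were seen, was at 1.23 and 0.764 CP10k (0.62).

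At the other end, Mrpl19 (chr6:81957851-81965958, minus strand), the counterpart of a bacterial large subunit protein, was at 0.285 CP10k in TSF and 1.03 in CM, a log2 ratio of -1.55. Its share of cells was nearly equal, at 69 of 139 in TSF (49.6%, 41.1 to 58.2) and 16 of 29 in CM (55.2%, 35.7 to 73.6). Mrps10 (chr17:47368887-47381417, plus strand), which lies in the head of the small subunit, was at 0.655 and 1.34 CP10k (log2 ratio -0.93), seen in 76.3% and 82.8% of cells. For both genes the means were further apart than the shares of cells: when the ratio was computed from the share of cells instead, it was -0.23 for Mrpl19 and -0.29 for Mrps10. With 1 UMI of the shallowest CM cell taken from the CM mean, Mrpl19 was still past 1.5-fold lower at -1.01, while Mrps10 was at -0.52. The other 6 of the 8 lowest were lower in TSF by less than 1.5-fold, with log2 ratios from -0.58 to -0.48. They were Mrps31, Mrpl16, Mrpl10, Mrps2, Mrps26 and Mrpl50, and their shares of cells were also smaller in TSF except for Mrps26, at 76.3% against 69.0%. The shares were furthest apart for Mrps2, at 36.7% against 51.7%, and Mrpl16, at 42.4% against 55.2%.

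**Figure D2:**
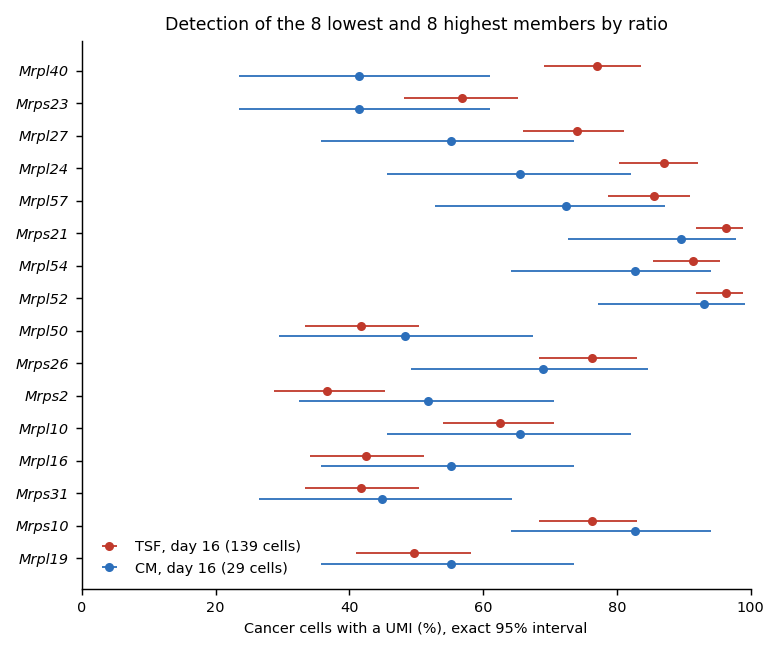
Percent of cancer cells with at least 1 UMI of each of the 8 members with the highest and the 8 with the lowest TSF to CM ratio, in the TSF library (red) and the CM library (blue) of day 16, with exact 95% intervals as lines. Intervals overlap for each gene except Mrpl40, at 77.0% in TSF and 41.4% in CM, and the CM intervals are the wider because they rest on 29 cells.

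The small CM library limits what can be read for single genes. Of the 42 members that were higher in TSF, 29 differed by less CP10k than 1 UMI in the shallowest CM cell would add, and of the 36 that were lower, 32 did. With that single UMI added to the CM mean, the log2 ratio would be 0.20 for Mrpl40, 0.23 for Mrpl24 and 0.49 for Mrpl52, all short of 1.5-fold, and -0.05 for Mrpl27 and -0.39 for Mrps23.

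Members with a shared role in the ribosome had ratios on both sides of 0. The stalk that recruits the translation GTPases is built on Mrpl10 and Mrpl11 and carries Mrpl12. Mrpl10 was at 0.375 CP10k in TSF and 0.582 in CM (log2 ratio -0.52), Mrpl11 at 0.575 and 0.583 (-0.02), and Mrpl12 at 1.603 and 1.52 (0.07). Around the tunnel exit, Mrpl24 was higher as given above, while its neighbours Mrpl22 and Mrpl23 had log2 ratios of -0.18 and -0.25. Mrpl45, which anchors the large subunit to the inner membrane, was at 0.517 and 0.417 CP10k (0.25). In the small subunit, Mrps12, at the centre where codons are read, and Mrps5, at the entry of the mRNA, were both lower in TSF, at 0.572 against 0.789 and 0.706 against 1.02 CP10k, with log2 ratios of -0.40 and -0.47. Neither reached 1.5-fold, and Mrps12 was seen in a larger share of cells in TSF, at 69.1% against 58.6%. With 1 UMI of the shallowest CM cell taken from the CM mean, the log2 ratios turned to 0.33 for Mrps12 and 0.07 for Mrps5.

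The 3 paralogs Mrps18a, Mrps18b and Mrps18c descend from 1 bacterial small subunit protein, and structures place the product of Mrps18a in the large subunit. Mrps18a (0.792 and 0.943 CP10k) and Mrps18b (0.507 and 0.640) were lower in TSF, with log2 ratios of -0.23 and -0.29, and Mrps18c (0.792 and 0.631) was higher at 0.29. Mrpl58, a peptidyl-tRNA hydrolase that has become part of the large subunit and can release stalled chains, was at 0.719 and 0.551 CP10k (0.33). Mrps36, now known as a component of the 2-oxoglutarate dehydrogenase complex and not of the ribosome, was at 0.942 and 0.932 CP10k (0.01). It shares its name with annotated pseudogenes, as do Mrpl23 and Mrpl48, so their values are uncertain where reads could map to either copy.

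Genes of old and of newer origin both fell on either side of 0. Proteins were listed as having a bacterial counterpart or as particular to mitochondria, with Mrps18c under the first and its paralogs Mrps18a and Mrps18b under the second. Of the 30 large subunit proteins with a counterpart, 17 had a higher level in TSF (median log2 ratio 0.04), and of the 21 particular to mitochondria 9 did (-0.13). The share of cells gave the opposite order, being higher in TSF for 19 of the 30 and 18 of the 21, as did the ratio of summed levels, at 1.03 and 1.15. In the small subunit, 8 of 16 with a counterpart (0.01) and 7 of 10 listed as particular to mitochondria (0.21) had a higher level, and 9 of each had a larger share of cells. When the subunits were drawn by structure instead of by symbol, with the products of Mrps18a and Mrps30 in the large subunit, Mrps36 left out and the 5 proteins with other symbols added, the medians were 0.01 for the large and 0.12 for the small subunit, a difference of 0.11.

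Those 5 further ribosomal proteins gave a mixed picture. Chchd1 was at 1.56 CP10k in TSF and 1.13 in CM (log2 ratio 0.43), Gadd45gip1 at 0.482 and 0.348 (0.38), and Aurkaip1 at 1.67 and 1.41 (0.23). Dap3, a GTP-binding protein of the small subunit, was at 0.665 and 0.734 (-0.13). Ptcd3, an RNA-binding protein near the mRNA entry, was past 1.5-fold lower at 0.178 and 0.378 CP10k (-0.78).

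In the rest of the mitochondrial translation machinery, only the assembly factors had a share higher in TSF below the 39.8% of all genes compared. Of 13 translation factors compared, 6 were higher in TSF, or 46.2% (median log2 ratio -0.02, 1 past 1.5-fold higher and 2 lower), with Gfm2, which acts in ribosome recycling, highest at 0.115 and 0.0158 CP10k (0.89, seen in 22 of 139 and 2 of 29 cells) and the elongation factor Gfm1 lowest at 0.202 and 0.378 (-0.66). Of 24 factors that process mitochondrial rRNA or assemble the ribosome, 6 were higher, or 25% (median -0.29, 1 past 1.5-fold higher and 3 lower), between Noa1, a GTPase, at 0.284 and 0.116 CP10k (0.83) and Rpusd4, a pseudouridine synthase, at 0.261 and 0.524 (-0.79). Of 13 mitochondrial aminoacyl-tRNA synthetases compared, 6 were higher, or 46.2% (median -0.21, 1 past 1.5-fold higher and 2 lower), between Lars2 at 11.3 and 6.05 CP10k (0.90) and Nars2 at 0.0496 and 0.224 (-1.12). No other synthetase exceeded 0.334 CP10k in either library, and whether reads from elsewhere were counted as Lars2 was not tested. The difference of the assembly factors from the members was not tested.

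The mRNAs that mitochondrial ribosomes translate also stood near equality. Of the 13 protein genes of mtDNA, 6 were higher in TSF and none was past 1.5-fold. Their log2 ratios ran from -0.40 for mt-Nd5 to 0.35 for mt-Co2, both of which encode respiratory chain subunits. They summed to 220.5 CP10k in TSF and 211.4 in CM. Over cells, the median percent of UMIs from mitochondrial genes was 1.99 in TSF (quartiles 1.44 and 2.62) and 1.72 in CM (1.28 and 2.57), and among cells with at least 10000 UMIs the difference of the medians was 0.000751 percentage points. The mitochondrial rRNA genes were not analysed here.

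Genes of the cytoplasmic ribosome were mostly higher in TSF. Of its 80 protein genes, 72 were higher in TSF, 10 past 1.5-fold, with a median log2 ratio of 0.35 beside 0.02 for the mitochondrial set. Averaged over cells, they took 24.3% of the UMIs of a cell in TSF and 18.9% in CM. Their log2 ratios ranged from -0.37 for Rpl13a to 0.92 for Rps29. Complex I takes up more mtDNA-encoded subunits than any other complex. Its nuclear-encoded genes were listed by their Nduf symbols alone, Ndufa4 among them, without a check of each product's place. Of these 37 genes, 32 were higher in TSF, 9 past 1.5-fold, with a median of 0.33. They ran from Ndufs1 at 0.274 and 0.575 CP10k (-0.85) to Ndufb9 at 7.76 and 1.66 (2.16). Since CP10k values share 1 total, the larger share of cytoplasmic ribosomal genes in TSF lowers the values of all others. When each library was rescaled without them, 47 of the 78 mitochondrial ribosomal protein genes were higher in TSF and their median was 0.11, beside 44.9% of all genes compared and a median of -0.07.

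**Figure D3:**
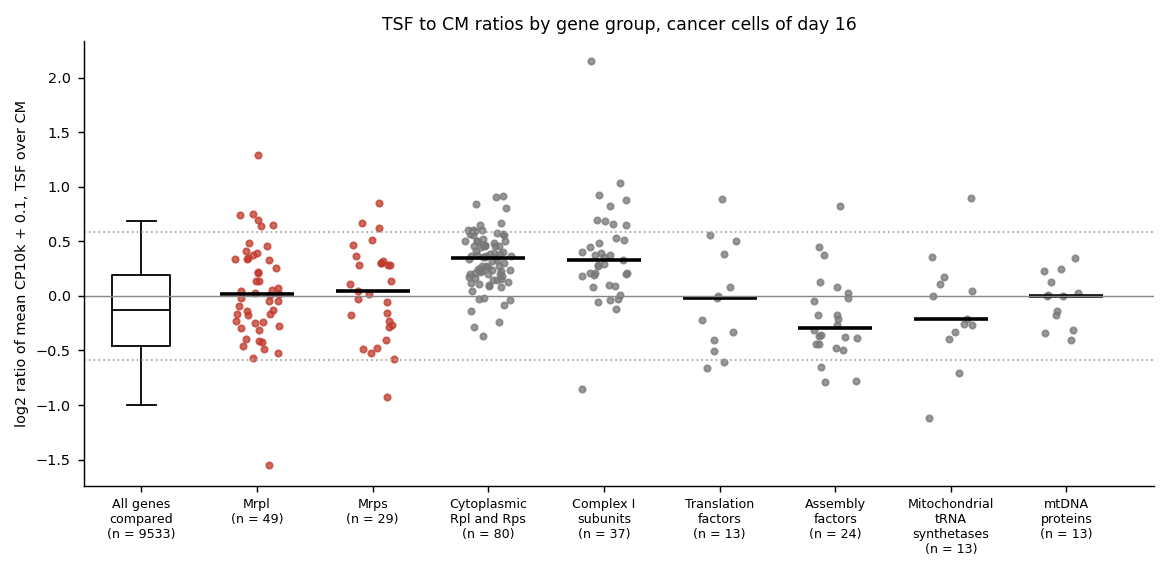
log2 ratio of mean CP10k plus 0.1, TSF over CM, of each gene in 8 groups (points, bar at the median), with all genes compared as a box (median and quartiles, whiskers at the 5th and 95th percentiles) and dotted lines at 1.5-fold. Mrpl (median 0.02) and Mrps (0.04) lie around 0 and above all genes (-0.13), and the cytoplasmic ribosomal (0.35) and complex I genes (0.33) lie above them.

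Within the mitochondrial set, the ratio went with the length of the coding sequence. In 3 equal groups of 26, the genes with the shortest coding sequences (195 to 477 bases) had 17 higher in TSF, with a median log2 ratio of 0.21. The middle group (480 to 753 bases) also had 17 higher and a median of 0.21. The longest (756 to 1326 bases) had 8 higher and a median of -0.27. Mrps21 and Mrpl52 belong to the shortest group and Mrpl40 and Mrps23 to the middle one. Mrpl19, with 876 bases, is in the longest, together with Mrps2, Mrps31 and Mrpl10. The other 4 of the 8 lowest are outside it, with Mrps10 (603 bases), Mrps26 (600) and Mrpl16 (753) in the middle group and Mrpl50 (477) in the shortest.

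The same trend ran through all genes compared. In the same ranges of coding length, 61.9%, 48.8% and 38.6% of all genes were higher in TSF, with medians of 0.15, -0.02 and -0.14 over 788, 1243 and 2535 genes. Across the 78 members, the Spearman correlation between coding length and log2 ratio was -0.44, at -0.46 for Mrpl and -0.43 for Mrps. It was -0.15 over the 9318 compared genes with an annotated coding sequence, which are not limited to the members' range of lengths. With the length of the whole transcript it was -0.21 for the members and -0.13 for all genes compared. With the mean level it was 0.20 and -0.08. These are correlations across genes of the same 2 libraries, given as a description. Both subunits were spread evenly over the length groups, with 17, 16 and 16 Mrpl and 9, 10 and 10 Mrps genes.

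**Figure D4:**
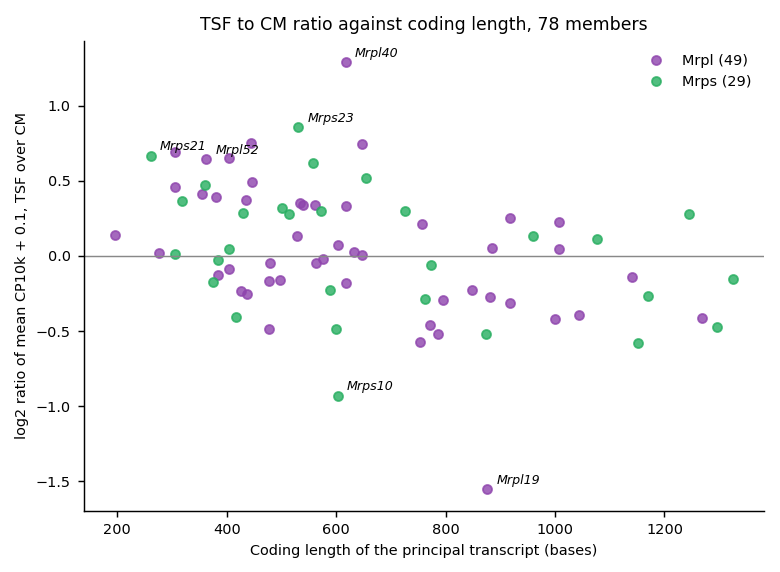
log2 ratio of mean CP10k plus 0.1, TSF over CM, of the 78 members against the coding length of the principal transcript in bases, with Mrpl in purple and Mrps in green. Genes of 756 bases or more lie mostly below 0 (8 of 26 higher in TSF), whereas 17 of 26 in each of the shorter groups lie above it.

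The 78 genes lie on 17 chromosomes. Many sit head to head with another gene: 33 of the 78, or 42.3%, have the start of a protein-coding gene on the opposite strand within 1000 bases of their own, where 18.4% of the 9318 compared genes with an annotation do. The partner was itself compared in 25 distinct pairs, and in 11 of these both genes had a ratio on the same side of 0. Mrpl40 starts 175 bases from Hira, a histone chaperone gene, whose log2 ratio was 0.06 where that of Mrpl40 was 1.29. Mrpl46 and Mrps11, named here for their shared start, are both members and start 412 bases apart, with log2 ratios of -0.23 and 0.30.

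Promoters were read from RefSeq (GRCm38.p6) as the 250 bases before and 50 after the start, and 69 of the 78 members matched. Nuclear genes for mitochondria are known as targets of NRF1 and of ETS family factors such as GABPA, so their core letters were searched on both strands. The letters GCGCA, then any base, then GCGC, bound by NRF1, were in 13 of the 69, or 18.8%, in 12.2% of the promoters of genes compared and in 4.78% of all promoters. CCGGAAG, bound by ETS factors, was in 25, or 36.2%, beside 21.2% and 9.12%. AAGATGGCG, bound by YY1, was in 11.6%, beside 3.88% and 1.49%. The Sp motif GGGCGG was in 49.3%, fewer than the 68.7% of genes compared, and the cyclic AMP response element TGACGTCA was in 2.90%, beside 3.70%. By subunit the NRF1 letters were in 23.3% of Mrpl and 11.5% of Mrps promoters, and the ETS letters in 32.6% and 42.3%. Members with the ETS letters had 17 of 25 higher in TSF (median log2 ratio 0.14) and those without had 19 of 44 (-0.05), whereas with the NRF1 letters it was 8 of 13 (0.07) and without them 28 of 56 (0.00).

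The 250 bases before the start are printed for those of the 8 highest and 8 lowest members by ratio whose RefSeq and GENCODE starts lie within 30 bases of each other and which have no head-to-head partner, 3 of the highest and 4 of the lowest. Capitals mark the NRF1 and ETS letters on either strand, and lower case is the rest. Mrps23 lies at chr11:88204138-88204387 (plus strand), Mrps21 at chr3:95871515-95871764 (minus strand), Mrpl52 at chr14:54426659-54426908 (plus strand), Mrps31 at chr8:22411090-22411339 (plus strand), Mrpl16 at chr19:11770165-11770414 (plus strand), Mrps2 at chr2:28467816-28468065 (plus strand) and Mrps26 at chr2:130563507-130563756 (plus strand).
Mrps23: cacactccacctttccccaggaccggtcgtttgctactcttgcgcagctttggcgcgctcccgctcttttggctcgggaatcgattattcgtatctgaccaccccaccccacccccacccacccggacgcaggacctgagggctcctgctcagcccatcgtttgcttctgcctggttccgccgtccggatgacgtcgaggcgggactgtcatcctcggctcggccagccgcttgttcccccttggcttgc
Mrps21: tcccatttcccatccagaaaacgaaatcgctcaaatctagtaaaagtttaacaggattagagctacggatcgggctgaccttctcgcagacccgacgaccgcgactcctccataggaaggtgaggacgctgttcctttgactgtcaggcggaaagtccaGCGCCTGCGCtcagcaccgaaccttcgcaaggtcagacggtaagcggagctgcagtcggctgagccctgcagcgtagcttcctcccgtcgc
Mrpl52: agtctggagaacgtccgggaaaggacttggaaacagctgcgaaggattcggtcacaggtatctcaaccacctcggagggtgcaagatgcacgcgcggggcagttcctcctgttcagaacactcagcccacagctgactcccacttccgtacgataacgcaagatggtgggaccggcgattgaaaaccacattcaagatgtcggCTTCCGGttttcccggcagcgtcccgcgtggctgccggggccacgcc
Mrps31: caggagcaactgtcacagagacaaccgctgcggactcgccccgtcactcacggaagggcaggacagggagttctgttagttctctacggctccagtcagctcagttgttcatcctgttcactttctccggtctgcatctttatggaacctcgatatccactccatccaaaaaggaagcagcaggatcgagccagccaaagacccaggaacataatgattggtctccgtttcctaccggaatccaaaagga
Mrpl16: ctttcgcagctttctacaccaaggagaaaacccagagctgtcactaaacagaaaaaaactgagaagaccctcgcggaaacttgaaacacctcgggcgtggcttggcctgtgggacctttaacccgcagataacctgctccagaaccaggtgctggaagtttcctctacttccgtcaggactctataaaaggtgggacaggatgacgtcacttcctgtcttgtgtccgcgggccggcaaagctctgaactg
Mrps2: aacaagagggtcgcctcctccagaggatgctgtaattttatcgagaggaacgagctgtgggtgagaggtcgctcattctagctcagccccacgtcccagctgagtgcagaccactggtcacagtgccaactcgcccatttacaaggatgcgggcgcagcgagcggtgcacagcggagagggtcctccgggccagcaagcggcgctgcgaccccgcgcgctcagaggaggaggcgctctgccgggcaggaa
Mrps26: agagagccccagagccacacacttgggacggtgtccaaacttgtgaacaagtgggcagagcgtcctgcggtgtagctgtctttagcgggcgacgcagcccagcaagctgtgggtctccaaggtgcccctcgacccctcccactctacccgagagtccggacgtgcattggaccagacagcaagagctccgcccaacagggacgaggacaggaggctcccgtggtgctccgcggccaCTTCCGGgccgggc
Among the highest, Mrps21 holds the NRF1 letters and Mrpl52 the ETS letters in this stretch, and Mrps23 holds neither. Among the lowest, Mrps26 holds the ETS letters, and Mrps31, Mrpl16 and Mrps2 hold neither. The counts above also read the 50 bases after the start. With those included, Mrps23 and Mrps21 hold the ETS letters too, and Mrps26 the NRF1 letters. These matches describe letters and not binding, and no match says only that these letters are not in this window.

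The first transcribed bases were compared with those of cytoplasmic ribosomal protein genes. Many mRNAs of cytoplasmic ribosomal proteins begin with a C followed by a run of pyrimidines, the 5′ terminal oligopyrimidine motif through which mTOR controls their translation. A start with C and 4 more pyrimidines was found at 0 of the 69 annotated starts of mitochondrial ribosomal protein genes, at 13 of 59 for cytoplasmic ones (22.0%) and at 2.49% of all promoters. RefSeq and GENCODE give the identical start base for 18 of the 69, so an annotated start can be off by more than the stretch read. The start is shown for the 3 of those 18 with the highest mean level, and for the 3 cytoplasmic genes with the motif that had the highest log2 ratios. Each line runs from 10 bases before the start to 15 bases into the transcript, with its first 5 bases in capitals, at chr14:54426899-54426923 (plus), chr1:37890467-37890491 (plus), chr1:160195205-160195229 (plus), chr11:114668570-114668594 (plus), chr2:39005117-39005141 (minus) and chr14:18270972-18270996 (minus) in this order.
Mrpl52: gggccacgccCACTTccggttccct
Mrpl30: aaagaaccgtACGGTctgtgacggc
Mrps14: cctccacagaACCTGtttccggtgt
Rpl38: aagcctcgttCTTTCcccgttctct
Rpl35: ccgccctttcCTCTTtctctcgaac
Rpl15: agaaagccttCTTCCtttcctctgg
The cytoplasmic starts, chosen for the motif, run on in pyrimidines, and the starts shown for Mrpl52, Mrpl30 and Mrps14 hold purines within the first 5 bases.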

How the data were processed

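Per the study's methods and the labels, libraries were made with the 10x Genomics 5′ v1.1 kit, the authors mapped reads to mm10 (GRCm38.p6) plus CD90.1 with Cell Ranger, imported them into Seurat 4.1.0, corrected ambient RNA with a customised SoupX, filtered cells and named cell types by hand. The authors left out sub-clusters they took for multiplets, checked with scDblFinder, and state that the cancer cells, recognised by CD90.1, needed none of this. The deposited gene table of cancer cells of day 16 gives per library the CP10k of each gene (UMIs scaled to 10000 in each cell, then averaged over cells), the counts of cells with a UMI and the percent of cells, and the deposited cell table gives UMI counts and mitochondrial percent of each cell. The authors' own fold changes, p-values, q-values, ranking scores and gene set enrichment scores were not used, nor were 2 libraries of the cell table that are not among the samples described. No per-cell expression matrix was used, so shares of cells were not thinned to equal depth, and members at day 11 were not analysed here.

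Ratios are log2 of TSF over CM after 0.1 CP10k was added to both means, for genes seen in at least 10% of cells as the mean of the 2 libraries, and this understates the change of low genes. Called means at least 1.5-fold on this scale. Shares have exact Clopper-Pearson 95% intervals, for counting error only. With 1 library per group no test was made. The computation was tested on simulated data. Lengths and coordinates came from GENCODE M21 (GRCm38), promoters from RefSeq. Members and lists were chosen with earlier results of these data known. Members named are the 10 of highest mean level, the 8 highest and 8 lowest by ratio, those with separate intervals and those of the role lists, and of each other list its highest and lowest gene. Other pseudocounts, filters, scalings, intervals and subunit assignments were tried. The tools were pandas 2.3.3 and numpy 2.4.6 in Python 3.11.15, with scipy 1.17.1 for intervals and matplotlib 3.10.9 for plots.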

Additional observations from a re-analysis of the deposited data

Results flagged for a closer look

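The median percent of mitochondrial UMIs in cancer cells differed in direction between the days. At day 16 the median of the TSF library was 0.275 percentage points above that of CM (1.99 and 1.72), and at day 11 TSF libraries a and b were below CM, by -0.161 and -0.110 (1.75 and 1.80 against 1.91). The day 11 CM library had 6 cancer cells, and the difference between the days was not tested. Among cells with at least 10000 UMIs the day 16 difference was 0.000751 percentage points.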

How the results depend on the processing

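The count of members with a higher mean in TSF was 42 with either other pseudocount. No pseudocount can change it, because the same amount is added to both means. The count was 47 without cytoplasmic ribosomal genes (44.9% of all genes) and 49 when centred on all genes (50.0%, by construction). By the share of cells it was 55 (49.6%). In the main setting, 39.8% of all genes were higher. Among all genes with a UMI in either library it was 50.4%, while the members' count stayed at 42. Past 1.5-fold higher were 0 with a pseudocount of 1 CP10k, beside 0.808% of all genes. Past 1.5-fold lower were 1 with a pseudocount of 1 (2.09% of all genes) and 8 with a pseudocount of 0.01 (27.4%). By a rate computed from the share of cells, an alternative chosen after seeing the data, 13 were past 1.5-fold higher and 1 lower, beside 15.1% and 16.3% of all genes. Centring on all genes gave medians of 0.15 for all members, 0.15 for Mrpl and 0.18 for Mrps, and the rate from the share of cells gave 0.22, 0.22 and 0.17. By that rate the median of all genes was 0.004. Wilson intervals of the share of cells were separate for 2 members, where exact ones were separate for 1. The share of all genes is given for exact intervals only. The day 16 difference in mitochondrial percent was 0.000751 among cells with at least 10000 UMIs. Adding 1 UMI of the shallowest CM cell to the CM mean, also chosen after seeing the data, turned Mrpl27 to -0.050 and Mrps23 to -0.39, and 6 more of the 10 named members past 1.5-fold fell below it. Of these 10, 9 fell below it with a pseudocount of 1, 5 by the rate from the share of cells, 1 with 1 UMI taken from the CM mean and 0 under both scalings. The sign changed for 10 of the 36 named members by the rate from the share of cells, for 17 with 1 UMI taken from the CM mean, for 8 with 1 added and for 3 under each scaling. No paired analysis was possible because no result comes from a test, with 1 library per group at day 16 and in CM at day 11. TSF at day 11 has libraries a and b, which enter only the mitochondrial percent, where each was given alone, at -0.161 and -0.110. Depth limits chiefly the CM values, which rest on 29 cells.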
